A study of Mus musculus with 13 samples.

Results

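The 10 genes described here are commonly used to mark neutrophils: the calgranulins S100a8 and S100a9, the growth factor receptor Csf3r, the specific granule proteins Ngp, Camp and Ltf, the azurophil granule enzymes Elane, Prtn3 and Mpo, and the interleukin-1 decoy receptor Il1r2. They were chosen by name and read from the probe sets annotated to exactly 1 of them, and each of the 10 had 1 such probe set among the 18818 genes measured. The study asked what activation of natural killer T (NKT) cells does in the fat of mice on a high-fat diet. NKT cells are T lymphocytes whose receptor reads lipid antigens held by CD1d, and α-galactosylceramide (αGalCer) is the glycolipid most used to stimulate them through CD1d. RNA of epididymal fat was measured on 13 Affymetrix arrays in 4 groups: 3 CD1d knockout arrays after αGalCer, 4 wild type arrays after αGalCer, 3 CD1d knockout arrays after vehicle and 3 wild type arrays after vehicle. The knockout was the whole-body strain B6.129S6-Cd1d1/Cd1d2tm1spb/J, which lacks NKT cells, and the wild type was C57Bl/6J, also given as the background strain of the knockout. All mice were males aged 6.5 weeks, all ate the high-fat diet for 4 days, and all were injected into the peritoneum on days 0 and 2 with αGalCer (100 ng/g of body weight) or with its vehicle pyridine and killed on day 4. No group without the high-fat diet or without an injection was analysed here.

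Neutrophils are short-lived phagocytes that form in the bone marrow under granulocyte colony-stimulating factor (G-CSF) and enter tissue along gradients of chemokines that bind Cxcr2. Their azurophil and specific granule proteins are transcribed mainly in marrow precursors, so that mature neutrophils in tissue keep little of these messages, while they go on expressing S100a8, S100a9, Csf3r and Il1r2. Monocytes and some macrophages also express S100a8, S100a9, Csf3r and Il1r2, and neutrophils are known to enter fat early during high-fat feeding.

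The values are log2 expression values, in which a difference of 1 is a 2-fold difference, and ± after a group mean is the standard deviation (SD) over its arrays. Cd1d1, the targeted gene, lay between 2.64 and 4.03 on the 6 knockout arrays and between 9.08 and 10.86 on the 7 wild type arrays, so the arrays matched their genotype labels. The 10 measured adipocyte genes averaged 10.29 to 12.26 on the 13 arrays, so the defining genes of the labelled tissue were present. Arrays of 1 group carry replicate numbers, but no label says whether each came from its own mouse, so p-values measure the spread between these arrays, which may in part be technical. Within the wild type αGalCer group the arrays differed in the genes described here. Arrays 1 and 4 both lay above arrays 2 and 3 for 6 of the 10 genes, against 20.1% of all genes. Camp was one of the 6, though its αGalCer arrays all lay between 4.22 and 4.26. This split was made after the data were seen, so its counts, here and below, describe the arrays and are no test. For the genes that were called, and for some list counts, values without one or the other pair are also given. Without arrays 1 and 4, 6 of the 10 genes were called higher in wild type fat, and without arrays 2 and 3, 5 were. Counts of the 10 genes or of a list without a pair, here and below, stand without the share of all genes called. They therefore have no background to be read against. The defining marker Ly6g was not analysed here. The 10 genes did not behave as 1 set in these data, so below they are described by role rather than as a measure of neutrophils.

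Windows of 300 bases around a transcription start, from 250 bases before it to 50 after, were taken from RefSeq (GRCm38.p6) for all 10 genes. The windows of 6 are shown, because S100a8, S100a9, Csf3r and Il1r2 had the largest changes after αGalCer and Prtn3 and Elane are direct neighbours on chromosome 10 whose values differed. S100a8 and S100a9 are likewise neighbours on chromosome 3, with 0 protein-coding genes between them, and are transcribed in opposite directions. Capitals mark matches to GAGGAA, a core of sites bound by the myeloid factor PU.1, or to TTNNGNAA, a core of sites bound by C/EBP factors, searched on both strands, so that a match on the other strand reads TTCCTC or TTNCNNAA. No 2 marked matches overlapped in the windows shown. In order, the windows are chr3:90668821-90669120 (plus strand), chr3:90695672-90695971 (minus strand), chr4:126024409-126024708 (plus strand), chr1:40085843-40086142 (plus strand), chr10:79879417-79879716 (plus strand) and chr10:79886062-79886361 (plus strand), each printed 5′ to 3′ in the direction of transcription.
S100a8: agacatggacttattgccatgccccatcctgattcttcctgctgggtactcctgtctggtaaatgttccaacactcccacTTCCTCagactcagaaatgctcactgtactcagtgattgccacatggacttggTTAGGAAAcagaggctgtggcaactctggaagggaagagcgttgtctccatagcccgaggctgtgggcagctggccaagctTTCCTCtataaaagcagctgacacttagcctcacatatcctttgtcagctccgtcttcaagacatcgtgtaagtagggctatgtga
S100a9: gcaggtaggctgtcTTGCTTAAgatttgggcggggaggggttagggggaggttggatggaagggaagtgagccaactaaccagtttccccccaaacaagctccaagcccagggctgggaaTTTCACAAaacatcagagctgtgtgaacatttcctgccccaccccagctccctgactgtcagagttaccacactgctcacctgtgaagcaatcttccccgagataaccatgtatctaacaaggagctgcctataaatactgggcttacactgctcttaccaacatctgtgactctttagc
Csf3r: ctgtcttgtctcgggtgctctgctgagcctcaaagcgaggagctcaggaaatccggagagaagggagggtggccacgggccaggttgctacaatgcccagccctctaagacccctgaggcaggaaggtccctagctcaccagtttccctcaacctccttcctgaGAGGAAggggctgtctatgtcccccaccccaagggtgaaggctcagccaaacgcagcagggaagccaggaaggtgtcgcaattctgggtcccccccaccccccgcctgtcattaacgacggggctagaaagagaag
Il1r2: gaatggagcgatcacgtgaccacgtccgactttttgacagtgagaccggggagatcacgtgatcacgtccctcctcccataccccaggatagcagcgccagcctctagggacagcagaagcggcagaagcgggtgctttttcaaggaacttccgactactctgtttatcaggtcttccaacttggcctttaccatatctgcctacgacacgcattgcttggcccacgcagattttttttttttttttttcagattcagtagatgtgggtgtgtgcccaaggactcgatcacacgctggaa
Prtn3: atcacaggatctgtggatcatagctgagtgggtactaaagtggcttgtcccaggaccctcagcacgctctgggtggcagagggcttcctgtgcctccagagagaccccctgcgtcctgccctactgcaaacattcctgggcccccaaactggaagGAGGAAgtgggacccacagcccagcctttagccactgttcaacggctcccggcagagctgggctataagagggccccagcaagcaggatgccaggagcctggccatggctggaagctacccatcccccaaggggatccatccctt
Elane: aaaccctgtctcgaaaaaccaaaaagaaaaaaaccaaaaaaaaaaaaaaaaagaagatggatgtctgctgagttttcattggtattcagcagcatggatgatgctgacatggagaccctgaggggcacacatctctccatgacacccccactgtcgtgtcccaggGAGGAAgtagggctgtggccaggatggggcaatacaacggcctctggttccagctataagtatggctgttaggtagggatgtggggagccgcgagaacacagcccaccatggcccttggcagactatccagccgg
The GAGGAA core stood in the windows of 6 of the 10 genes (S100a8, Csf3r, Ltf, Elane, Prtn3 and Mpo) and in 28.3% of 32851 windows of all genes. The TTNNGNAA core stood in 4 of the 10 (S100a8, S100a9, Ngp and Ltf) and in 40.7% of all windows. Prtn3 and Elane each hold 1 match to GAGGAA and none to TTNNGNAA, and Il1r2 holds no match to either core in this window. The windows of Il1r2 and Csf3r lie inside the genes, after the annotated gene starts (40084692 and 126023441). The bases around those 2 gene starts were not searched. A match is a run of letters and not a measured site.

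In wild type fat, αGalCer was followed by higher expression of 6 of the 10 genes (S100a8, S100a9, Csf3r, Ngp, Prtn3 and Il1r2) and by lower expression of 0. Rises from 1.51-fold to 8.46-fold were called at an adjusted p under 0.05, where 19.8% of all 18818 genes rose and 41.9% changed in either direction. The median change of the 10 genes was 0.91 on the log2 scale, beside -0.02 over all genes. For the same 6 genes every αGalCer array lay above every vehicle array, as it did for 21.7% of all genes. Of the 6 granule genes, Ngp and Prtn3 rose, and Camp, Ltf, Elane and Mpo did not pass the test. In these bulk samples, more neutrophils, more RNA per cell, monocyte or macrophage RNA and a smaller share of adipocyte RNA cannot be told apart.

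**Figure D1:**
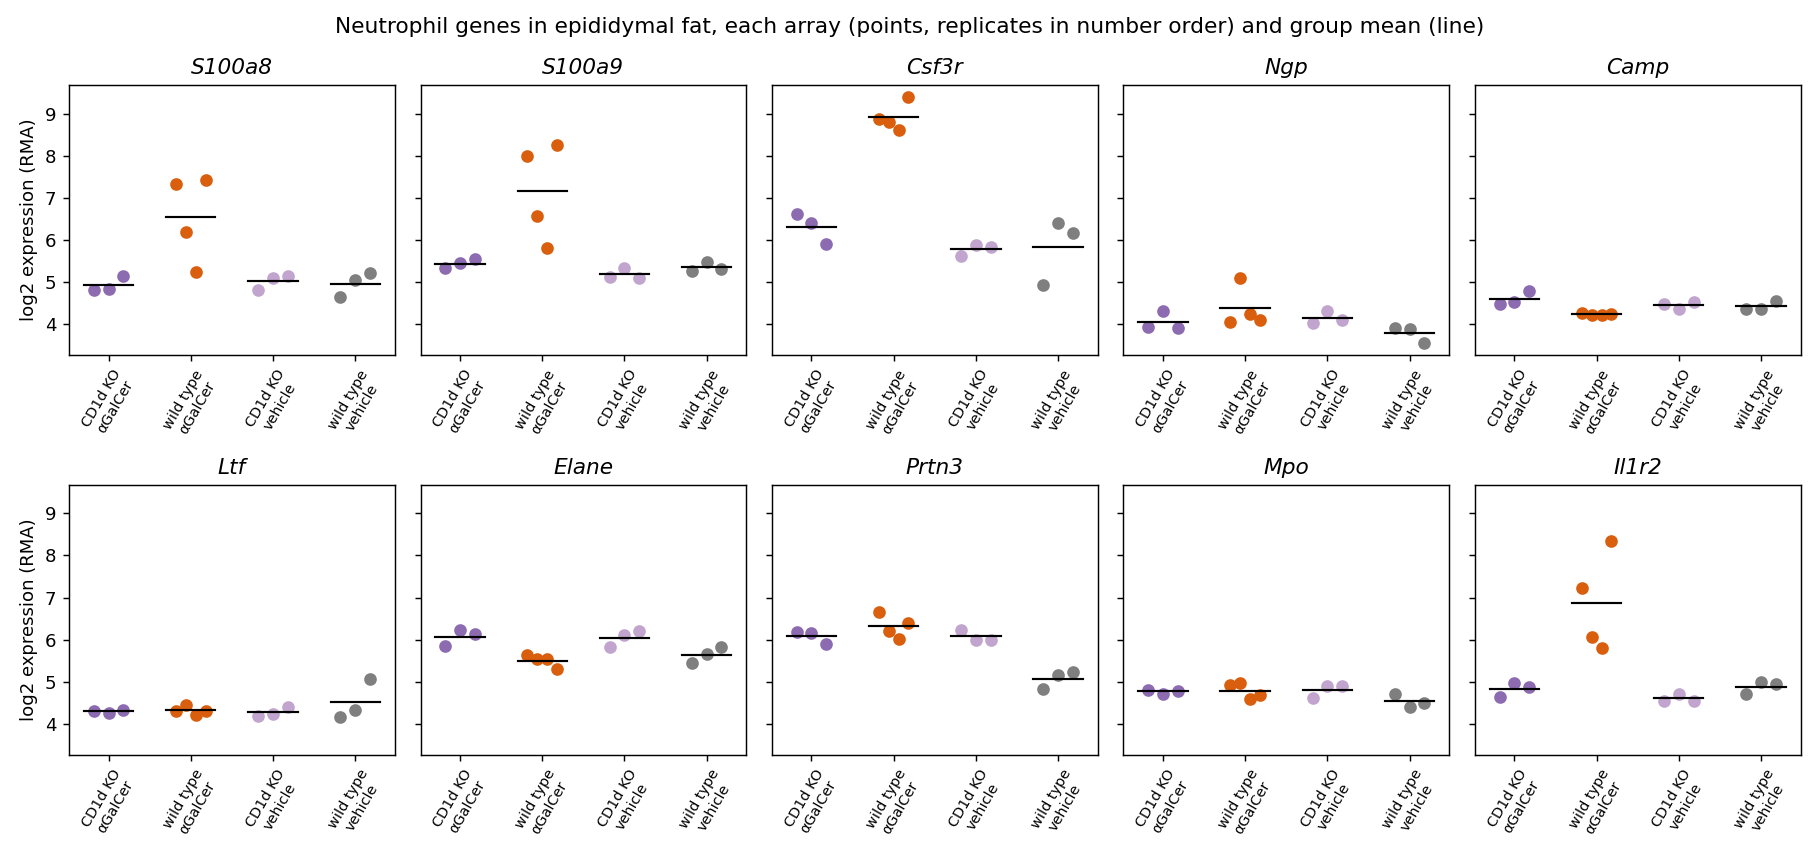
Log2 expression (vertical axis) of the 10 genes on each of the 13 arrays (points, in replicate order within a group) with the group mean (line), for knockout αGalCer, wild type αGalCer, knockout vehicle and wild type vehicle. Csf3r lies at 8.62 to 9.39 on the wild type αGalCer arrays and at 4.94 to 6.62 on the other arrays, while Camp, Ltf and Mpo stay between 4.16 and 5.07 in every group.

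S100a8 and S100a9 encode the subunits of calprotectin, a calcium- and zinc-binding protein that is abundant in the neutrophil cytosol. S100a8 lay at 7.32, 6.20, 5.23 and 7.43 on the wild type αGalCer arrays, against 4.64, 5.04 and 5.21 on the wild type vehicle arrays. The αGalCer arrays spread over more than 2 units of log2, and array 3 lay only just above the highest vehicle array. The group means were 6.55 ± 1.04 (SD, n = 4) after αGalCer and 4.96 ± 0.29 (SD, n = 3) after vehicle, a rise of 1.59 ± 0.41 (SE, 3-fold, adjusted p = 0.00726). S100a9 followed the same order of arrays, with 8.00, 6.56, 5.82 and 8.26 after αGalCer against 5.27, 5.47 and 5.32 after vehicle. Its rise was 1.80 ± 0.45 (SE, 3.49-fold, adjusted p = 0.00526), and its 95% interval ran from 0.84 to 2.77. Without αGalCer arrays 1 and 4 the rise of S100a8 was 0.76 (adjusted p = 0.0479) and that of S100a9 was 0.83 (adjusted p = 0.00575). Without arrays 2 and 3 the rises were 2.42 and 2.78 (adjusted p = 3.83e-06 and 2.82e-07). The rise was called with either pair of arrays, at different sizes.

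Calprotectin signals through Tlr4 and other surface receptors. A list of 8 measured genes held such receptors, their signalling and also Ptafr, the receptor of platelet-activating factor. Of the 8, 6 rose and 0 fell in wild type fat, with a median change of 1.36. Emb, a receptor described for S100a9, rose by 2.48 ± 0.25 and Ptafr by 1.69 ± 0.16. Tlr4 rose by 1.53 ± 0.28 and its adaptor Myd88 by 1.48 ± 0.13. These 4 were the largest rises of the list, which also held the receptor genes Bsg and Ager. The rest of the S100 family did not share the pattern of the calgranulins. Of 15 other genes with an S100 name, which include S100pbp, a gene outside the family, 2 rose and 2 fell. S100a4 (2.06 ± 0.12), a protein of motile and fibroblast-like cells as well as leukocytes, and S100a6 (0.92 ± 0.14) rose, and S100a1 (-0.72 ± 0.08), the form of muscle, and S100a11 (-0.30 ± 0.05) fell. S100a4 lay at 8.89 to 9.07 on the 4 αGalCer arrays, so the spread between arrays seen for S100a8 and S100a9 was not a feature of S100a4.

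Csf3r, the receptor for G-CSF, had the largest rise of the 10 genes. It lay at 8.88, 8.80, 8.62 and 9.39 on the wild type αGalCer arrays, against 4.94, 6.41 and 6.17 on the wild type vehicle arrays. All 4 αGalCer arrays were more than 2 units of log2 above the highest vehicle array, and array 1 of the vehicle group stood low. The rise was 3.08 ± 0.30 (SE, 8.46-fold, 95% interval 2.42 to 3.74, adjusted p = 3.39e-06). Unlike the calgranulins, Csf3r rose to a similar extent without arrays 1 and 4 (2.87) and without arrays 2 and 3 (3.29). Its ligand Csf3 lay between 4.20 and 4.53 on all 13 arrays and did not pass the test (0.03 ± 0.09, adjusted p = 0.837).

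Il1r2 binds interleukin-1 without signalling and so acts as a decoy. It lay at 7.22, 6.07, 5.80 and 8.35 on the wild type αGalCer arrays, against 4.72, 5.00 and 4.94 on the wild type vehicle arrays. Arrays 1 and 4 were again highest, and the groups did not overlap. The rise was 1.97 ± 0.45 (SE, 3.92-fold, adjusted p = 0.00302). It was 1.05 without arrays 1 and 4 (adjusted p = 0.000186) and 2.90 without arrays 2 and 3 (adjusted p = 1.07e-05). Of 16 genes of the interleukin-1 system found under their listed names, 14 rose and 0 fell, with a median change of 2.03. The receptor antagonist Il1rn rose by 3.70 ± 0.19, the cytokine Il1a by 3.13 ± 0.42, the cytokine Il1b by 2.70 ± 0.71 and the inflammasome sensor Nlrp3 by 2.68 ± 0.25. Il1b shared the array order of Il1r2, with 9.14, 6.42, 5.85 and 9.39 after αGalCer against 4.51, 5.59 and 4.91 after vehicle. The signalling receptor Il1r1 was one of the 2 genes that did not pass (0.20 ± 0.27, adjusted p = 0.608).

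The specific granule genes were at the low end of the measured range. Ngp, neutrophilic granule protein, lay at 4.06, 5.09, 4.23 and 4.11 on the wild type αGalCer arrays, against 3.91, 3.88 and 3.56 on the wild type vehicle arrays. Array 2 was the highest, and arrays 1, 3 and 4 were also above the vehicle arrays. The rise of 0.59 ± 0.22 (SE, 1.51-fold) passed the test narrowly (adjusted p = 0.0427), and without array 2 it was 0.35 ± 0.13 and did not pass (adjusted p = 0.0572). Leaving out vehicle array 3 gave 0.48 (adjusted p = 0.157). Without αGalCer arrays 1 and 4 the rise was 0.88 (adjusted p = 0.0115) and without arrays 2 and 3 it was 0.30 (adjusted p = 0.161), and the call was lost in 12 of the 23 alternatives that could test it. Camp, the cathelicidin antimicrobial peptide, lay at 4.26, 4.22, 4.22 and 4.25 on the αGalCer arrays, against 4.37, 4.36 and 4.54 on the vehicle arrays. All αGalCer arrays were below all vehicle arrays, yet the difference was small (-0.19 ± 0.09, adjusted p = 0.122). Ltf, the iron-binding lactoferrin, lay at 4.31, 4.45, 4.21 and 4.31 after αGalCer, against 4.16, 4.32 and 5.07 after vehicle. Its groups overlapped, with vehicle array 3 as the highest of all 13 arrays, and its difference was -0.20 ± 0.17 (adjusted p = 0.397) with that array and 0.08 ± 0.10 (adjusted p = 0.616) without it.

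The azurophil granule enzymes differed from each other. Prtn3, proteinase 3, lay at 6.65, 6.21, 6.01 and 6.40 on the wild type αGalCer arrays, against 4.83, 5.16 and 5.24 on the wild type vehicle arrays. The groups were far apart relative to their spread, and the rise was 1.24 ± 0.16 (SE, 2.36-fold, 95% interval 0.90 to 1.58, adjusted p = 2.86e-05). It was 1.03 without arrays 1 and 4 (adjusted p = 0.000424) and 1.44 without arrays 2 and 3 (adjusted p = 4.6e-05). Elane, neutrophil elastase, whose gene is next to Prtn3 with 0 protein-coding genes between, lay at 5.64, 5.54, 5.54 and 5.30 after αGalCer, against 5.45, 5.67 and 5.82 after vehicle. Its groups overlapped and its difference was -0.14 ± 0.14 (adjusted p = 0.478). Mpo, myeloperoxidase, lay at 4.92, 4.97, 4.59 and 4.69 after αGalCer, against 4.72, 4.41 and 4.50 after vehicle, and its difference was 0.25 ± 0.12 (adjusted p = 0.118). The Mpo groups overlapped in the range from 4.59 to 4.72. Among 9 measured inhibitors of neutrophil proteases, 2 rose and 2 fell. Serpinb1a, an inhibitor of elastase and proteinase 3 made by leukocytes, rose by 1.28 ± 0.15 and its relative Serpinb1b by 0.54. Serpina1b, an α1-antitrypsin gene, fell by 3.39 ± 0.65 on the log2 scale and Pi15, a peptidase inhibitor, by 2.03 ± 0.14. After vehicle, Serpina1b in knockout minus wild type fat was -3.64 ± 0.70, which did not pass (limma adjusted p = 0.0972).

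**Figure D2:**
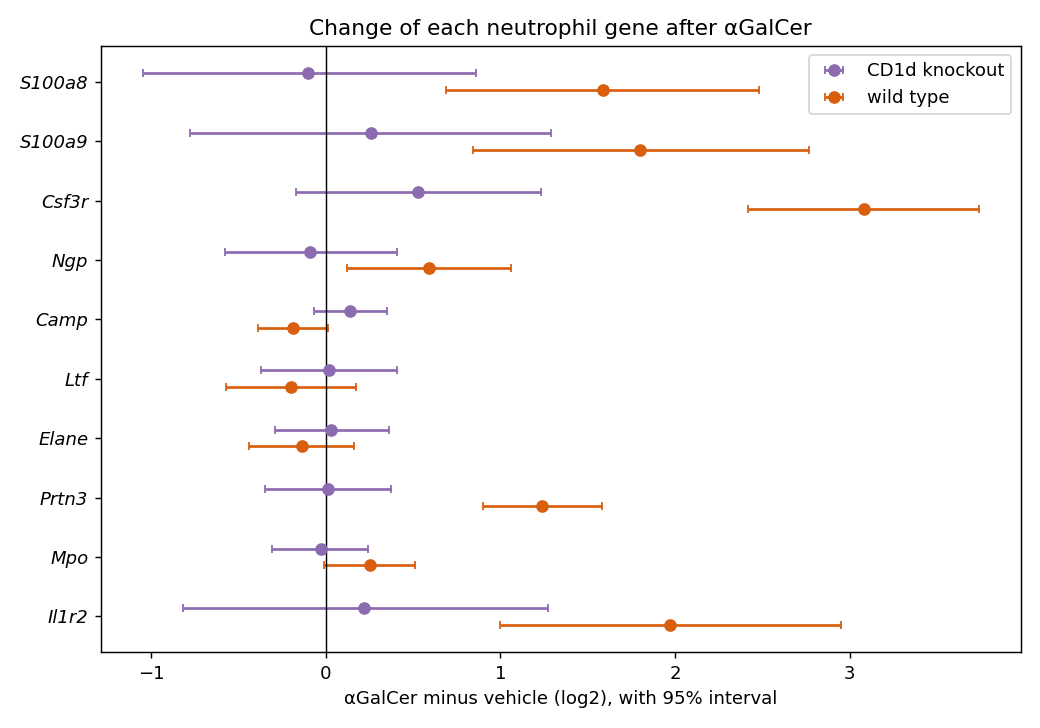
Change of each of the 10 genes after αGalCer (αGalCer minus vehicle, log2, horizontal axis) with its 95% interval, in CD1d knockout (upper point of each pair) and wild type (lower point). In wild type the intervals of S100a8, S100a9, Csf3r, Ngp, Prtn3 and Il1r2 lie above 0, and in knockout all 10 intervals include 0.

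Neutrophil genes outside the 10 were read from a list of 32, of which 26 were measured. In wild type fat 17 of the 26 rose and 0 fell, with a median change of 1.25. The neutrophil collagenase Mmp8 rose by 2.98 ± 0.29, the chemokine receptor Cxcr2 by 2.74 ± 0.51, the lectin Clec4e by 2.57 ± 0.66 and the integrin subunit Itgam by 2.52 ± 0.22. Clec4e and Itgam are also expressed by macrophages. Cxcr2 lay at 7.55, 5.96, 5.53 and 8.33 on the wild type αGalCer arrays, against 3.74, 4.36 and 4.20 on the wild type vehicle arrays, which is the array order of Il1r2. Of the 26, arrays 1 and 4 both lay above arrays 2 and 3 for 17 genes, or 65.4%. Among the 17 that rose the order held for 13. Fcnb, a ficolin of granules, rose by 0.36 ± 0.12 (adjusted p = 0.0238), while the granule protease Ctsg (0.14 ± 0.16) and the membrane protein Ms4a3 (0.16 ± 0.10) did not pass the test. Without αGalCer arrays 1 and 4, 12 of the 26 genes rose, and without arrays 2 and 3, 16 rose.

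**Figure D3:**
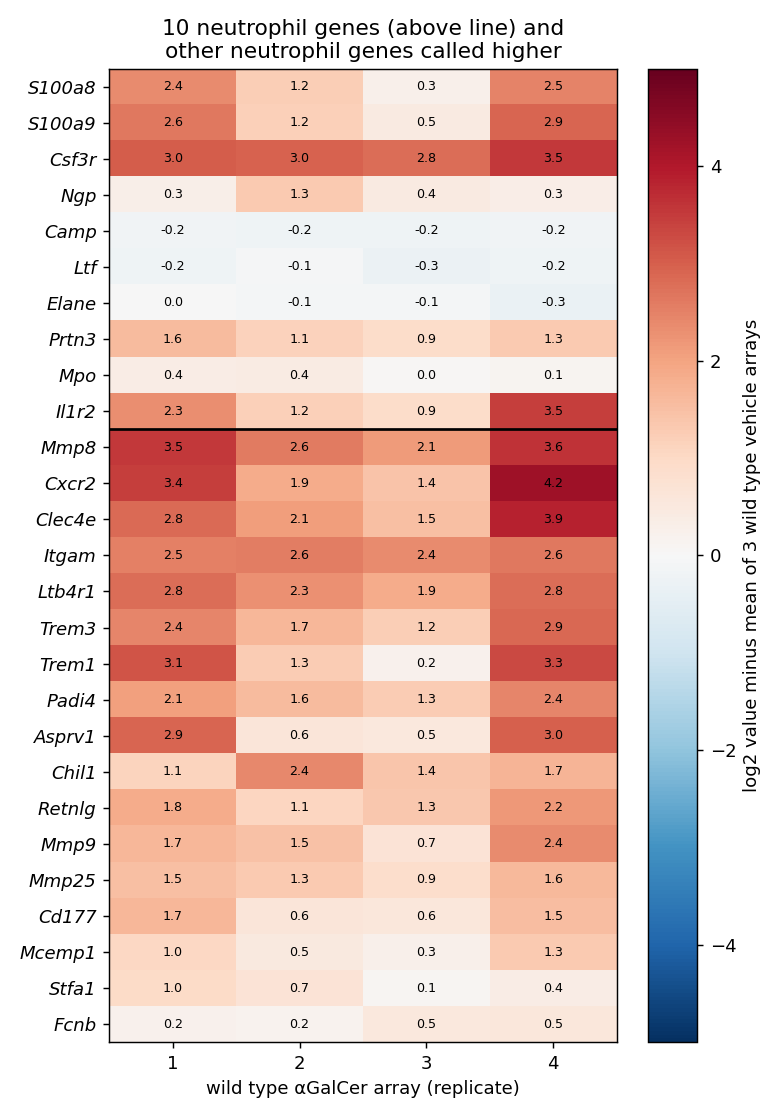
Log2 value on each of the 4 wild type αGalCer arrays (columns) minus the mean of the 3 wild type vehicle arrays, for the 10 genes (above the line) and the 17 other neutrophil genes called higher (below it), with the value printed in each cell. Most rows are darkest in columns 1 and 4; Csf3r and Itgam are nearly even across the columns, and Ngp and Chil1 are highest in column 2.

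Chemokines and growth factors that draw or expand neutrophils were measured for all 14 listed genes, and 7 rose and 0 fell in wild type fat (median change 0.45). Without αGalCer arrays 1 and 4, 4 of them rose. The cytokine Tnf rose by 2.78 ± 0.33, the Cxcr2 ligands Cxcl2 by 1.92 ± 0.70 and Cxcl5 by 1.63 ± 0.33, and the cytokine Il6 by 1.43 ± 0.34. Cxcl1 (1.10), Cxcl3 (0.95) and the growth factor Csf2 (0.71) were the others called. Cxcl2 lay at 8.15, 5.91, 5.45 and 9.01 on the wild type αGalCer arrays, against 4.68, 5.67 and 5.27 on the wild type vehicle arrays, so its groups overlapped at array 3. The interleukin-17 genes Il17a (0.03 ± 0.14) and Il17f (0.19 ± 0.10), whose products induce G-CSF and chemokines, did not pass the test. All 5 measured subunits of the phagocyte NADPH oxidase rose (median 1.92), among them Cybb (1.73) and Ncf1 (1.92). Of 11 transcription factors of granulocytes and myeloid cells, 7 rose and 2 fell. Spi1, which encodes PU.1, rose by 2.41 ± 0.18, Irf8 by 2.46 ± 0.18 and Runx1 by 2.01 ± 0.10, and Cebpa, which is also an adipocyte factor, fell by 1.29 on the log2 scale.

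Markers of other cells moved in the same comparison. Of 15 measured macrophage markers 13 rose and 0 fell (median 1.39), and their mean level was 10.55 to 10.73 on the wild type αGalCer arrays, against 8.72 to 9.38 on the wild type vehicle arrays. Of 13 monocyte markers 8 rose and 1 fell (median 1.53), with mean levels of 8.62 to 8.97 after αGalCer and 6.50 to 7.13 after vehicle. Of 10 adipocyte markers 0 rose and 10 fell (median -1.0), with mean levels of 10.29 to 11.03 after αGalCer and 12.03 to 12.14 after vehicle. Their part in the rise of the 10 genes was not tested. Arrays 1 and 4 both lay above arrays 2 and 3 for 0 of the 15 macrophage markers and for 6 of the 13 monocyte markers, beside 6 of the 10 genes described here. Eosinophil markers (2 of 8 higher, 2 lower), mast cell and basophil markers (1 of 11 higher, 2 lower) and red cell and platelet markers (1 of 4 higher, 0 lower) had medians between -0.14 and 0.16. The red cell gene that rose was Slc4a1, by 1.24 ± 0.37, and no haemoglobin gene was analysed here. The lowest value of any probe set on any array was 1.533, so a log2 value above 0 does not show that a marker was expressed.

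**Figure D4:**
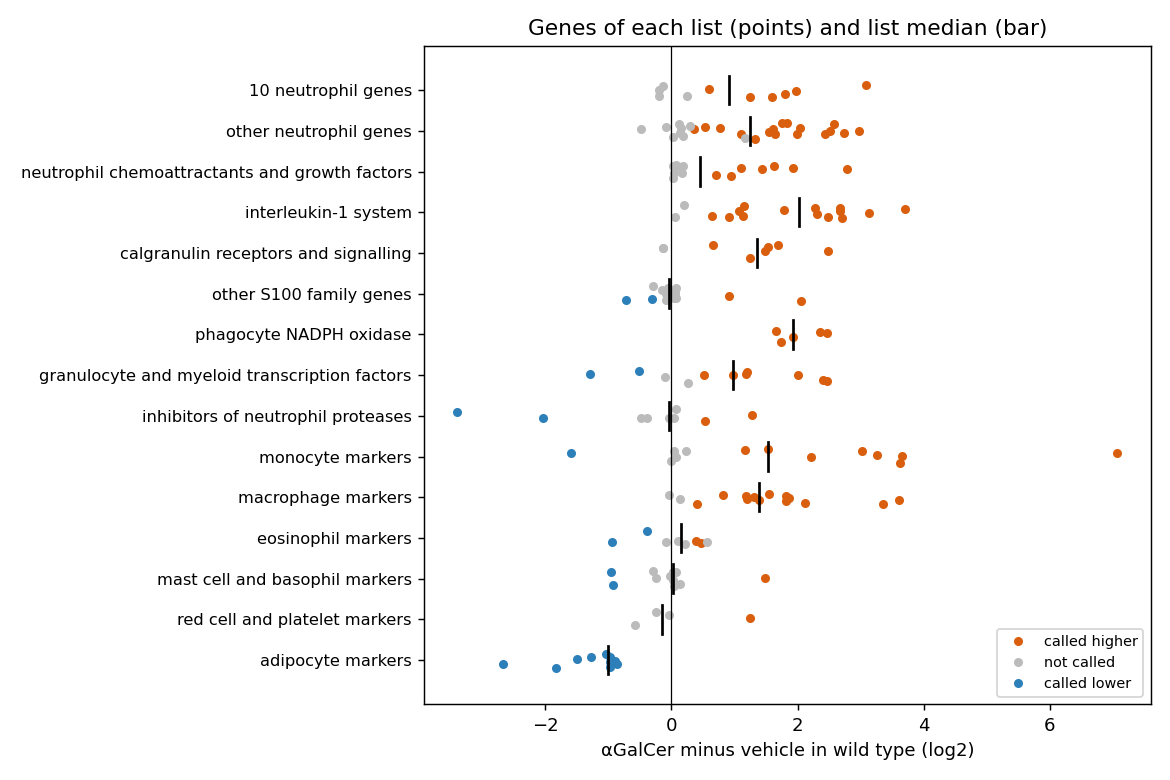
Change of each gene (points, αGalCer minus vehicle in wild type, log2, horizontal axis) and the median (bar) for the 10 genes and 14 other lists (rows), coloured by whether the gene was called higher, lower or not called. The 10 genes have a median of 0.91, other neutrophil genes 1.25, monocyte markers 1.53, macrophage markers 1.39 and adipocyte markers -1.0.

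In CD1d knockout fat none of the 10 genes passed the test after αGalCer. The limma fit called 0 of 18818 genes there (0%), and 1281 genes, of which 0 were among the 10, had an unadjusted p under 0.05. S100a8 lay at 4.80, 4.84 and 5.14 on the knockout αGalCer arrays, against 4.81, 5.10 and 5.15 on the knockout vehicle arrays. S100a9 lay at 5.33, 5.45 and 5.54 after αGalCer, against 5.13, 5.33 and 5.09 after vehicle. Il1r2 lay at 4.65, 4.96 and 4.87 after αGalCer, against 4.54, 4.72 and 4.55 after vehicle. For these 3 genes the groups overlapped or, for S100a9, met at 5.33. Csf3r lay at 6.62, 6.40 and 5.91 after αGalCer, against 5.61, 5.88 and 5.84 after vehicle, and its groups did not overlap. Its difference of 0.53 ± 0.32 had an adjusted p of 0.771 and a 95% interval of -0.17 to 1.23, which leaves room for a rise as well as for no change. Prtn3 lay at 6.18, 6.17 and 5.90 after αGalCer, against 6.24, 6.00 and 6.00 after vehicle, and its interval was narrower (0.01 ± 0.17, -0.35 to 0.37). The intervals of the calgranulins were wide, from -1.05 to 0.86 for S100a8 and from -0.78 to 1.29 for S100a9. The remaining 5 genes differed by -0.09 to 0.14.

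Whether αGalCer acted differently by genotype was tested as the difference of the effects, knockout minus wild type. It was called for 2 of the 10 genes, Csf3r and Prtn3, where 28.2% of all genes were called. For Csf3r the effect was 0.53 in knockout and 3.08 in wild type, a difference of -2.55 ± 0.44 (adjusted p = 0.000814). For Prtn3 it was 0.01 in knockout and 1.24 in wild type, a difference of -1.23 ± 0.23 (adjusted p = 0.0013). S100a8 (-1.68 ± 0.61, adjusted p = 0.0557), Il1r2 (-1.75 ± 0.66, adjusted p = 0.0669) and S100a9 (-1.55 ± 0.65, adjusted p = 0.103) had differences of similar size that did not pass. S100a8 gained the call in 5 of 23 alternatives, Il1r2 in 6 and S100a9 in 2. Without wild type αGalCer array 3, the lowest of its group in all 3 genes, the differences were -2.12, -2.10 and -1.99 (adjusted p = 0.00172, 0.0164 and 0.00702), and 5 of the 10 genes were called. With 1 array left out at a time, 4531 to 5597 of all 18818 genes were called. The calls of Csf3r and Prtn3 held without arrays 1 and 4 (-2.34 and -1.02) and without arrays 2 and 3 (-2.76 and -1.44), where 4 and 5 of the 10 genes were called. For Ngp (-0.68 ± 0.31, adjusted p = 0.143) and for Camp (0.33 ± 0.13, adjusted p = 0.0926) the difference also did not pass, nor did it for Ltf, Elane and Mpo. Among the 26 other neutrophil genes 9 were called lower (8 without arrays 1 and 4, 14 without arrays 2 and 3), including Mmp8 (-2.91 ± 0.42) and Cxcr2 (-2.73 ± 0.75). Lcn2, the neutrophil gelatinase-associated lipocalin, which adipocytes also make, had the largest difference of that list (-3.41 ± 0.69, adjusted p = 0.00228) and was picked out after its values were seen. Lcn2 lay at 8.52, 8.11 and 7.89 on the knockout αGalCer arrays, against 11.86, 10.40 and 9.02 on the knockout vehicle arrays. The knockout vehicle arrays of Lcn2 were far apart, and its change of -2.25 ± 0.50 in knockout fat did not pass (adjusted p = 0.72).

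After αGalCer, knockout fat differed from wild type fat in 6 of the 10 genes, 4 lower and 2 higher, where 41.1% of all genes were called. This comparison shares the wild type αGalCer arrays with the one in wild type fat. Lower in knockout were Csf3r (-2.61 ± 0.30, adjusted p = 1.38e-05), Il1r2 (-2.03 ± 0.45, adjusted p = 0.0024), S100a9 (-1.72 ± 0.45, adjusted p = 0.00708) and S100a8 (-1.62 ± 0.41, adjusted p = 0.00616). Elane was higher in knockout, at 5.84, 6.24 and 6.14 on the knockout αGalCer arrays, against 5.64, 5.54, 5.54 and 5.30 on the wild type αGalCer arrays (0.57 ± 0.14, adjusted p = 0.00498). All 3 knockout arrays of Elane were above all 4 wild type arrays. Camp was also higher in knockout, at 4.48, 4.53 and 4.79 against 4.26, 4.22, 4.22 and 4.25 in wild type (0.36 ± 0.09, adjusted p = 0.00603). Both differences were under 1.5-fold. All 6 calls held without wild type αGalCer arrays 1 and 4 and without arrays 2 and 3, and the differences of S100a8 were then -0.79 and -2.45, of S100a9 -0.75 and -2.69, of Il1r2 -1.11 and -2.96 and of Csf3r -2.40 and -2.82. Prtn3, in contrast to its neighbour, lay at 6.09 ± 0.16 (SD, n = 3) in knockout and 6.32 ± 0.27 (SD, n = 4) in wild type and did not pass (-0.23 ± 0.16, adjusted p = 0.279). Ngp, Ltf and Mpo did not pass either, with differences of -0.32, -0.02 and -0.02.

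After vehicle, 1 of the 10 genes differed by genotype, where 0.112% of all genes (21) were called. Prtn3 lay at 6.24, 6.00 and 6.00 on the knockout vehicle arrays, against 4.83, 5.16 and 5.24 on the wild type vehicle arrays. The groups did not overlap, and the difference was 1.00 ± 0.17 (SE, 2-fold, 95% interval 0.64 to 1.36). The call was at the threshold (adjusted p = 0.0491), and leaving out any 1 array other than wild type αGalCer array 1 or 3 ended it, with a difference of 0.88 to 1.08. Elane lay at 5.82, 6.11 and 6.20 in knockout, against 5.45, 5.67 and 5.82 in wild type, and the difference of 0.40 ± 0.15 did not pass (adjusted p = 0.602). S100a8, S100a9, Csf3r and Il1r2 differed by -0.29 to 0.06. S100a8 and S100a9 lie on chromosome 3, the chromosome of the targeted gene Cd1d1, with 124 protein-coding genes between Cd1d1 and S100a8.

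Across the 4 groups the order of mean levels fell into several types. S100a8, S100a9, Csf3r and Il1r2 were highest in wild type fat after αGalCer, and among the other 3 groups neither knockout αGalCer against knockout vehicle nor knockout vehicle against wild type vehicle gave a call. Csf3r averaged 6.31 ± 0.36 in knockout fat after αGalCer, 5.78 ± 0.15 in knockout fat after vehicle and 5.84 ± 0.79 in wild type fat after vehicle (SD, n = 3 each), with overlapping ranges between the first and last of these. Prtn3 was lowest in wild type fat after vehicle, 5.08 ± 0.22 (SD, n = 3), and its other 3 groups averaged 6.08 to 6.32, with no call for knockout αGalCer against wild type αGalCer or against knockout vehicle. Elane was lower in both wild type groups (5.51 ± 0.15, n = 4, after αGalCer and 5.65 ± 0.19, n = 3, after vehicle) than in both knockout groups (6.07 ± 0.21 and 6.04 ± 0.20, n = 3 each, SD), a difference called after αGalCer and not after vehicle. Camp was lowest in wild type fat after αGalCer, and the 4 group means of Ltf and those of Mpo each lay within 0.26.

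The array-to-array likeness of the 10 genes was described with Pearson's r over the 13 arrays, which share their groups, so levels and deviations from the group means are both given and no test is attached. S100a8 and S100a9 had an r of 0.98 in level and 0.96 in deviation, and Il1r2 had 0.98 and 0.94 with S100a9. Csf3r had 0.85 in level with S100a9 but 0.37 in deviation. Ngp had 0.26 in level and -0.35 in deviation with S100a8.

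Outside the 10 genes, the gene most like Il1r2 was Cxcr2, with an r of 0.987 in level and 0.967 in deviation. For S100a9 the closest in level were Cxcl5 (0.985), the receptor Trem1 (0.985) and Il1b (0.984), and for S100a8 they were Il1f9 (0.973), Trem1 (0.967) and the histidine decarboxylase Hdc (0.967). The serotonin receptor Htr7 came first in deviation for both calgranulins (0.942 with S100a8 and 0.975 with S100a9). Il1f9, an interleukin-1 family cytokine, lay at 8.03, 5.56, 5.06 and 8.75 on the wild type αGalCer arrays, against 3.96, 4.18 and 4.35 on the wild type vehicle arrays. Il1f9 was listed under its other name, Il36g, so the 16 interleukin-1 genes counted above leave it out. Csf3r was most like the pan-leukocyte gene Cd53 (0.995), the chemokine receptor Ccr1 (0.992) and Arhgap30 (0.992). Cd53 lay at 11.79 to 11.97 on the wild type αGalCer arrays, an even level like that of Csf3r. Prtn3 was closest in level to Lgals3bp (0.946), Zfp516 (0.912) and Mmp14 (0.91) and in deviation to the kinase gene Pim1 (0.982), none of them granule genes. Elane was closest to Abcc6 (0.937) and Camp to Acot4 (0.924), while Mpo reached at most 0.899, with Clca1.

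For Ngp and for Ltf, 1 array lay apart above the other 12. The genes most like Ngp in level were Slc4a1 (0.902), Kel (0.882) and Rhag (0.859), which encode membrane proteins of red cells. On wild type αGalCer array 2, where Ngp was highest, Slc4a1 lay at 7.90 and at 5.15 to 6.30 on the other 12 arrays. Kel lay at 5.04 on that array and at 3.53 to 3.86 on the others, and Rhag at 4.55 and at 2.93 to 3.44 on the others. The 3 red cell genes and Ngp were thus highest on the same array, and the part of red cell material in the Ngp value was not tested. The genes most like Ltf were the calcium channel Trpv6 (0.953), the glycine decarboxylase Gldc (0.95) and Odam (0.947). On wild type vehicle array 3, where Ltf was 5.07, Gldc lay at 6.54 and at 4.20 to 4.47 on the other 12 arrays. Odam lay at 5.21 on that array and at 2.65 to 2.91 on the others, and Trpv6 at 4.95 and at 3.87 to 4.09 on the others.

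**Figure D5:**
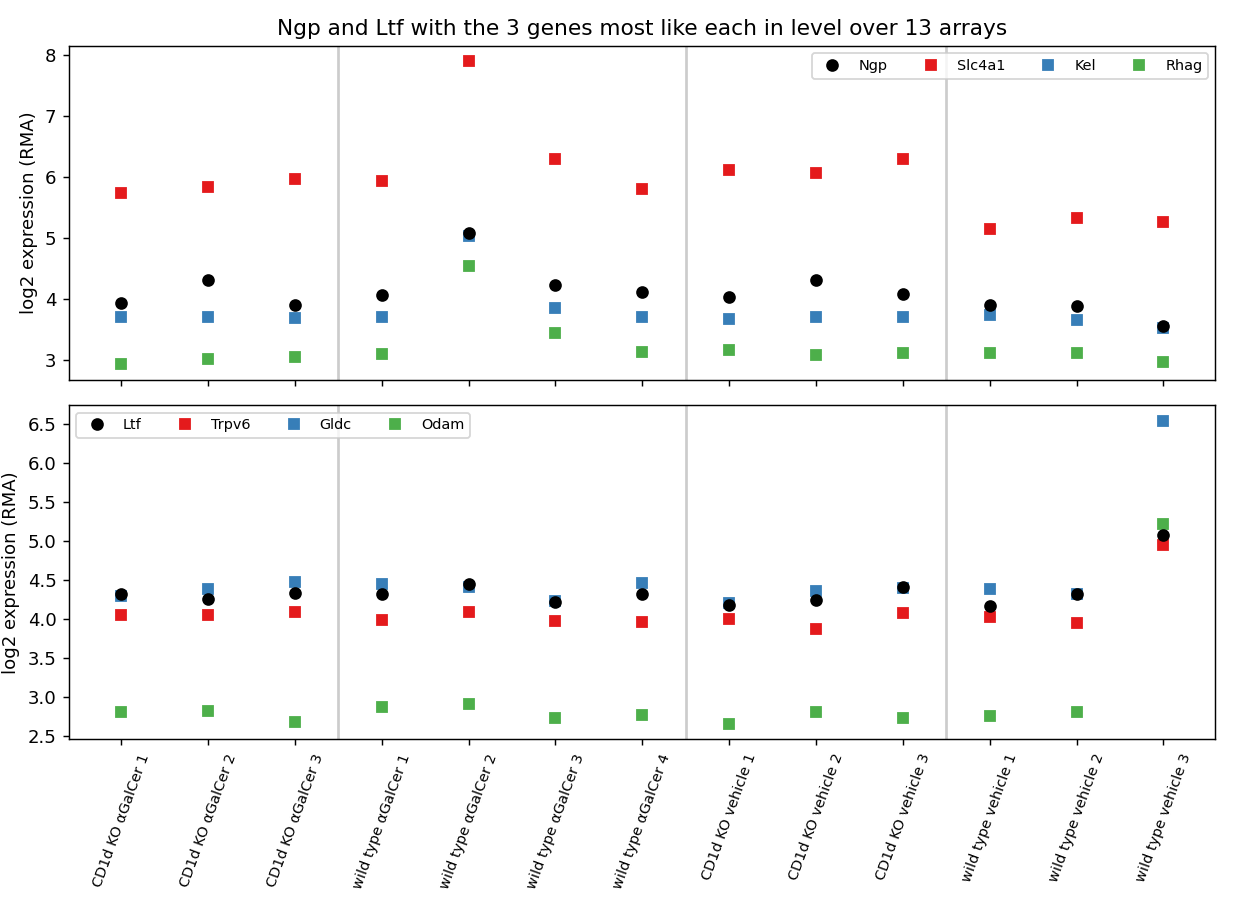
Log2 expression (vertical axis) on each of the 13 arrays (horizontal axis, grouped) of Ngp with Slc4a1, Kel and Rhag (upper panel) and of Ltf with Trpv6, Gldc and Odam (lower panel). Ngp and its 3 genes are highest on wild type αGalCer array 2, where Ngp is 5.09, and Ltf and its 3 genes are highest on wild type vehicle array 3, where Ltf is 5.07.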

How the data were processed

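Each of the 13 deposited columns holds the log2 values of 1 array by probe set, from RMA per the submitters' processing notes; RMA corrects background, quantile normalises and summarises probes, and understates changes of dim genes. For the software version and the build, nothing is given in the sources used here. Scan dates were not analysed here. Precision is limited by the number of arrays.

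Of 35556 probe sets, 21218 had 1 gene symbol, 1881 several and 12457 none; names were updated through Entrez identifiers (21185 matched, 3 by accession, 30 kept) with RefSeq (GRCm38.p6). The probe set with the highest mean stood for each of 18818 genes, of which 1388 had more than 1. One limma model (version 3.58.1, R 4.3.3) fitted group means to all 13 arrays (9 residual degrees of freedom) and used eBayes with a trend on intensity, giving 5 two-sided contrasts, adjusted over all genes (Benjamini-Hochberg) and called at an adjusted p under 0.05; a change is printed with ± its standard error (SE). The model was tested on simulated data. The smallest groups have 3 arrays.

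The 10 genes and the lists were chosen with earlier results of these data known. The rule named all 10 genes, from each list the 4 largest rises and 2 largest falls called in wild type fat, and per gene the 3 closest by Pearson's r in level and in deviation; further list genes were picked with their values known. Promoters came from RefSeq for all 10. Alternatives covered the variance model, array weights, normalisation, dim genes, probe sets, a fold minimum, the replicate number, the arrays in the model and each array left out; leaving out wild type αGalCer arrays 1 and 4, or 2 and 3, for the 10 genes and the lists, was added after the data were seen.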

Additional observations from a re-analysis of the deposited data

Results flagged for a closer look

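Ngp in wild type fat after αGalCer had 1 array far from the others: array 2 lay at 5.09, and arrays 1, 3 and 4 at 4.06, 4.23 and 4.11. The gap of array 2 to its nearest neighbour was 0.83 of the group's range, just above Dixon's critical value for 4 arrays, a limit that chance passes in about 1 of 20 groups. The red cell genes Slc4a1 (7.90), Kel (5.04) and Rhag (4.55) were also highest on this array.

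The αGalCer effect differed between the genotypes for 2 of the 10 genes by the test of the difference itself, knockout minus wild type. The same test called 28.2% of all genes, so the count is not particular to the 10. The difference was -2.55 ± 0.44 for Csf3r (limma adjusted p = 0.000814) and -1.23 ± 0.23 for Prtn3 (adjusted p = 0.0013). For Csf3r all 4 wild type αGalCer arrays were above all other arrays. For Prtn3 the wild type vehicle arrays were below all others (4.83 to 5.24), so the 2 genes reached their calls through different groups.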

How the results depend on the processing

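Of 1170 values of single genes under the alternatives to the design, 1124 kept their side of the threshold, 28 lost a call and 18 gained one. A change of direction with a call before or after it occurred for 0. Values without a call could change direction and still be counted as kept, as for Ltf in wild type fat (-0.38 to 0.08). In wild type fat the calls of S100a8, S100a9, Csf3r, Prtn3 and Il1r2 held in all 24 alternatives (highest adjusted p 0.0345, 0.0277, 0.000169, 0.000548 and 0.0191). The count of the 10 genes called, 6, ranged from 5 to 7 (5 to 6 without 1 array), and Ngp lost its call in 12 of 23. The count of all genes called there, 7881, ranged from 5019 to 11404 (6753 to 8766 without 1 array). In knockout fat the count stayed at 0 throughout, although 322 of all genes were called with array weights and 2 without knockout vehicle replicate 3, against 0. For the difference of the effects the count was 2, but 8 with array weights and 2 to 5 without 1 array (5 without wild type αGalCer replicate 3); it was 4 without αGalCer arrays 1 and 4 and 5 without arrays 2 and 3. Knockout against wild type after αGalCer gave 6, and 4 with a minimum fold of 1.5. After vehicle it gave 1 (Prtn3), but 0 when all probe sets were tested, 0 with only the arrays of the contrast and 0 to 1 without 1 array. All genes called moved to 5019 of 7881 (wild type) and 4888 of 7739 (knockout against wild type after αGalCer) with the fold minimum, by its construction; for the 21 genes called after vehicle the counts were 169 with array weights, 4 with only the arrays of the contrast, 11 without wild type vehicle replicate 3, 35 without wild type αGalCer replicate 2 and 33 without αGalCer arrays 2 and 3. The cause was not tested. With the replicate number as a block (replicate block), 4 of the 10 genes were called for the difference of the effects. After vehicle 0 were called with this block. In 18 pairs of same-numbered arrays, r of the deviations from the group means ran from -0.20 to 0.48 and passed 0.1 in 5. Arrays with different numbers were not compared, so this cannot decide whether the numbers pair the arrays. Leaving out genes with a mean under 5 removes Ngp, Camp, Ltf and Mpo and so gives no count over the 10.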
